A study of Drosophila melanogaster with 3 samples.

Results

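The 400 second-tier peaks of GFP-tagged CG17186 in Drosophila melanogaster embryos are described here. They are the 400 that follow the top 100, down to rank 500, of the 3814 reproducible peaks in the genome build dm6, when these are ordered by the signal that the authors gave each peak, from largest to smallest. The signal came from the pooled replicates, so the members were chosen by a measured value, and their signals are given as a description with no test. The peaks were compared with the 100 stronger peaks and with the 3314 weaker ones in selected features, whether or not these differed.

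ChIP-seq, the sequencing of DNA recovered with an immunoprecipitated chromatin protein, was carried out on embryos of mixed sex collected 0 to 14 hours after laying. The transgenic line stably expressed CG17186 with green fluorescent protein fused to its C-terminus, and the precipitation used an antibody against GFP. All 3 samples are biological replicates of this 1 group, so no genotype, treatment or stage could be compared. The tagged protein comes from a transgene insertion in whole embryos that hold many cell types, and a peak does not say in which cells the DNA was bound.

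Promoters of widely expressed fly genes carry a small set of DNA words that differ from the TATA box and initiator of developmental genes. DREF binds a palindromic word in promoters of replication and growth genes, and the insulator protein BEAF-32 binds overlapping words with the same core. M1BP binds the word known as motif 1 at promoters of constitutively expressed genes, and ZIPIC is a zinc finger protein that recruits the insulator cofactor Cp190.

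Of 17 words searched, 4 were more frequent at second-tier summits than beside them, those of DREF, BEAF-32, M1BP and ZIPIC. Example windows are printed first. For each word the best-ranked peaks whose window of 30 bases either side of the word held no annotated exon base are shown, on the forward strand of dm6, with the word in capitals. The sequences were read from the RefSeq release of the genome. The DREF word TATCGATA is its own reverse complement and is also 1 of both BEAF-32 words, the other being CATCGATA. It stood 61 bases upstream of the start of dock, the SH2 and SH3 adaptor of axon guidance, at chr2L:825875-825942. It stood 41 bases upstream of the start of ssp3 at chr2L:18943968-18944035, and 78 bases upstream of the start of aux, the clathrin uncoating factor auxilin, at chr3R:4220875-4220942. The other BEAF-32 word stood in an intergenic peak 1283 bases upstream of DNAlig3, which encodes a DNA ligase, at chr3R:12403089-12403156. CATCGATA also stands in the aux window, in lower case, on the forward and on the reverse strand. The reverse-strand copy there lies closer to the summit than the word in capitals. The M1BP word GGTCACACT stood 100 bases upstream of CrebB, a cyclic AMP response factor, at chrX:18370850-18370918. It stood 64 bases upstream of Pp1alpha-96A, a catalytic subunit of protein phosphatase 1, at chr3R:24518172-24518240. It was also present in an intergenic peak 4305 bases upstream of slp2, a segmentation gene, at chr2L:3832501-3832569. The ZIPIC word CAGGGCTG is shown by its other strand, CAGCCCTG, 227 bases upstream of Mob2, a kinase activator, at chr3L:11562427-11562494.
dock, DREF and BEAF-32 word: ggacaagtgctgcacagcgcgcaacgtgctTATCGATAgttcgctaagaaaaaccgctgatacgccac
ssp3, DREF and BEAF-32 word: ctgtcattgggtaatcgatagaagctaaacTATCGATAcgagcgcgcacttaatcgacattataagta
aux, DREF and BEAF-32 word: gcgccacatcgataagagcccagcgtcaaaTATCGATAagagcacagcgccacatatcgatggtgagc
DNAlig3, BEAF-32 word: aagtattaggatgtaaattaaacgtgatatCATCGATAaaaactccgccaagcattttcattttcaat
CrebB, M1BP word: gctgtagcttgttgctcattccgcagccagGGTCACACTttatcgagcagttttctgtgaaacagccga
Pp1alpha-96A, M1BP word: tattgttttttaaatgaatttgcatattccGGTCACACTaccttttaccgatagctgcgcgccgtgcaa
slp2, M1BP word: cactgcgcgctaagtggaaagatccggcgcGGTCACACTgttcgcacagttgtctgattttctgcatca
Mob2, ZIPIC word: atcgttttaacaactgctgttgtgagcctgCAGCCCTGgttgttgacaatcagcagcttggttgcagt

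Pooled signal ran from 688.6 at the first member to 308.1 at rank 500, with a median of 387.3. The scale is that of the unnamed peak caller, and the pooled signal was used here only to order and describe peaks within this list. The limits of the range are not steps in the signal. Rank 100, nearest to MEP-1, had 692.4 and the next rank, nearest to CG11779, had 688.6, while rank 500 and the next, nearest to XNP and CG10600, had 308.07 and 308.05. The top 100 peaks reached 17743 with a median of 2284, and the weaker peaks had a median of 156.2. Within the second tier the signal fell to 475.2 by rank 200, 387.6 by rank 300 and 341.6 by rank 400.

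Each replicate has its own peak list, and in each list the signal was put relative to the replicate's own median, taken over the reproducible peaks that all 3 lists hold, so that a relative signal of 1 is the level of a typical reproducible peak. A member took the value of the strongest replicate peak that overlapped it. All 400 members overlapped a peak in each of the 3 replicate lists. These lists hold 26139 to 30000 peaks, and the reproducible set was built from the same reads, so the overlap carries no independent information. The median relative signal of the members was 2.21 in replicate 1, 2.36 in replicate 2 and 2.18 in replicate 3. The corresponding medians of the top 100 peaks were 15.9, 15.7 and 15.2, and those of the weaker peaks 0.937, 0.915 and 0.929.

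Before single peaks are read, 6 members need to be set apart. IFT57 (rank 149), mnb (rank 188), hng1 (rank 194), pre-mod(mdg4)-T (rank 203), RpL32 (rank 387) and CG44002 (rank 483) share their interval with a stronger reproducible peak whose summit lies 200 to 565 bp away. Their replicate values are those of the stronger neighbour: IFT57 read 23.9, 22.5 and 25.7 in replicates 1, 2 and 3, and CG44002 read 24.5, 22.1 and 24.3. Taking the replicate peak with the nearest summit, a choice made after the values were seen, changed the value of 11 members and gave IFT57 a mean of 3.52 and CG44002 a mean of 2.58.

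The first 10 and last 5 members show the ends of the ranking. They do not hold all the lowest values. The lowest relative signal of any member was 0.774 in replicate 1, 1.15 in replicate 2 and 1.06 in replicate 3. CG11779, the first member, in a promoter region shared with the translational repressor gene nanos, had relative signals of 4.51, 3.76 and 3.46 in replicates 1, 2 and 3. CG17652, the next member, had 4.03, 2.89 and 4.31, with replicate 2 low. tkv (rank 104), which encodes a type I receptor for the BMP ligand Dpp, had 3.35, 3.38 and 4.37, with replicate 3 high. Those 3 peaks had overlapping values although the replicate that stood apart was a different one at each. Syx17 (rank 105), a SNARE of autophagosome fusion, had 3.66, 3.33 and 4.20. RpL23A (rank 106), a protein of the large ribosomal subunit, had 3.61, 3.73 and 3.88. SLIRP2 (rank 107), in a promoter region shared with the kinase gene Mkk4, had 3.73, 4.60 and 3.29. These 6 promoter peaks could not be ordered by their replicate values, since their ranges overlapped.

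At the lower end, XNP (rank 500), the fly ATRX chromatin remodeller, had 1.84, 1.18 and 1.94. Impbeta11, the member before it, an importin, had 2.42, 1.15 and 1.41. DUBAI (rank 498), a deubiquitinase, had 1.39, 2.36 and 1.60, so replicate 2 was the highest at this peak and the lowest at the other two. The intergenic peak nearest to the opsin gene Rh5 (rank 497) had 1.51, 1.60 and 2.09, and the intronic peak before it, in the ceramide synthase gene schlank, had 2.05, 2.07 and 1.25. No value of these last 5 peaks overlapped a value of the first 10, which is a separation that the choice by pooled signal produces.

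**Figure D1:**
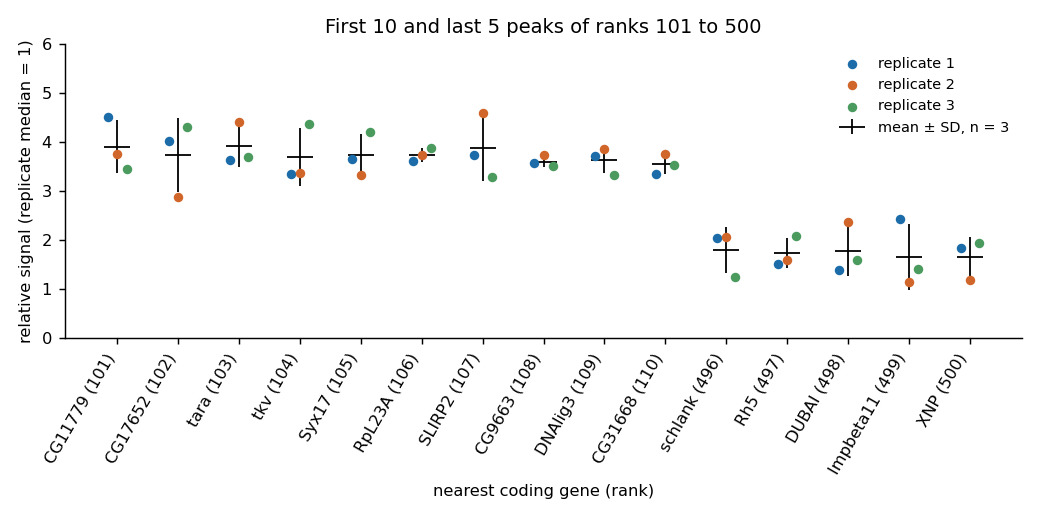
Relative signal (y axis, median of the shared reproducible peaks of each replicate = 1) of the first 10 and last 5 second-tier peaks, named by the nearest coding gene with the rank in brackets. Points are the 3 replicates and the bars give the mean ± SD, n = 3; the first 10 lie between 2.89 and 4.60 and the last 5 between 1.15 and 2.42.

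Ranks moved between replicates. Of the 400 members, 325 were ranked in the same range in the list of replicate 1, 317 in that of replicate 2 and 323 in that of replicate 3, and 225 (56.2%) were in that range in all 3. In the 3 lists, 5 members were in the top 100 every time, all among the 6 that overlap a stronger peak. Conversely, the second peak of Atx2 (rank 459), CAH3 (rank 468) and CG10413 (rank 484) ranked below 500 every time. The median coefficient of variation (CV) of the relative signal over the 3 replicates was 12.8%, with quartiles of 9.06% and 19.1%. It was 7.09% for the top 100 peaks and 21.2% for the weaker peaks. Within the tier it was 11.9%, 11.4%, 12.9% and 16.4% over successive blocks of 100 ranks.

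The members that varied least and most mark the spread. Frl (rank 168), a formin that assembles actin, had 2.93, 2.94 and 2.94 and the smallest CV of the members, at 0.188%. aay (rank 335), a phosphoserine phosphatase, had 2.12, 2.15 and 2.14. Impbeta11 had the largest CV, at 40.7%, followed by Rtnl2 (rank 465), a reticulon, with 2.20, 2.48 and 1.06 and a CV of 39.3%. Gnpat (rank 470), an acyltransferase of ether lipid synthesis, had 1.33, 2.51 and 1.36 and a CV of 39.0%. All 3 of these were ranked 465 or lower. This order depends on the match of replicate peaks. With the nearest-summit match, RpL32 (rank 387) had a CV of 85.7%, CG44002 (rank 483) 76.5% and CG8892 (rank 193) 65.7%. Spearman's rho between replicates across the 400 peaks was 0.632 for replicates 1 and 2, 0.652 for 1 and 3, and 0.575 for 2 and 3. The coefficients are a description, since the peaks share the pooled signal and the libraries.

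**Figure D2:**
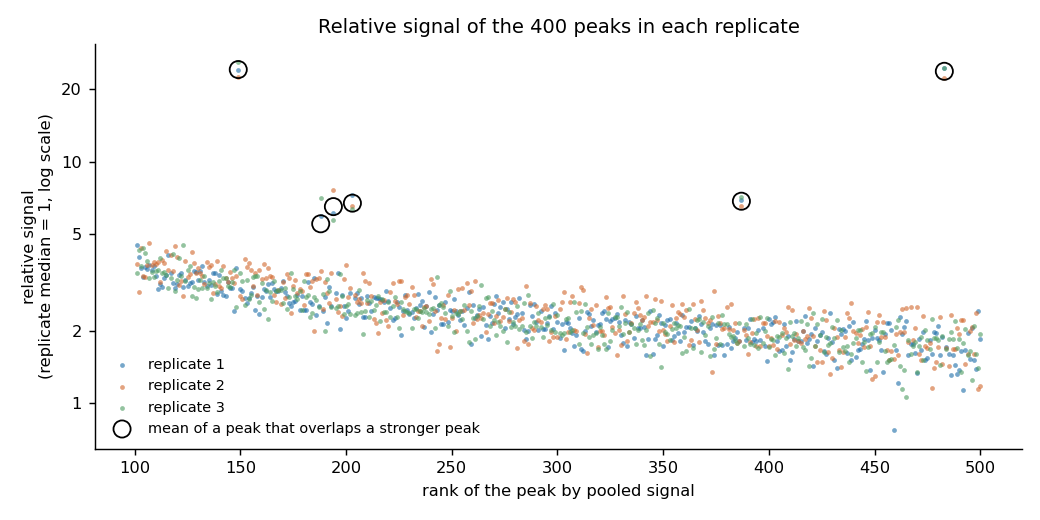
Relative signal on a log scale (y axis) of each of the 400 second-tier peaks in the 3 replicates, against the rank by pooled signal (x axis). Open circles mark the mean of the 6 peaks that overlap a stronger reproducible peak and take its value. Apart from those, values fall from between 2.89 and 4.51 at the first 2 members to between 1.18 and 1.94 at rank 500. The lowest single value was 0.774, in replicate 1.

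Most second-tier peaks lay at promoters. Summits no farther than 500 bp from the start of an annotated transcript (TSS) were counted as promoter summits, and 331 of the 400 members did so (82.8%, exact Clopper-Pearson interval 78.7 to 86.3%). The share over all 3814 reproducible peaks was 77.5%, that of the top 100 was 94.0% and that of the weaker peaks 76.3%. Of the other members, 46 (11.5%) lay in introns and 17 (4.25%) between genes, and 2 summits lay in coding exons, of Cib2 and CycY. The remainder were 1 summit in a 5′ UTR, of mnb, and 3 in other exons. No summit lay in a 3′ UTR, and 0 of 400 allows a share of up to 0.75% by the limit of 3 counts that is used here for a count of 0 (exact upper bound 0.918%). Over all 3814 reproducible peaks the shares were 15.4% in introns, 5.77% between genes, 0.105% in coding exons and 0.42% in 3′ UTRs. Over successive blocks of 100 ranks the promoter count was 81, 76, 88 and 86, the intron count 7, 18, 10 and 11, and the intergenic count 9, 4, 1 and 3.

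Each replicate was also ranked by its own signal, so that the share could be given with a spread. Here and below this spread is an SD over 3 lists that share many peaks. It reflects the change of peaks between lists and does not cover the counting of peaks. In the second tier of replicates 1, 2 and 3 so ranked, the promoter share was 83.2%, 83.0% and 83.0%, or 83.1% ± 0.144 (SD, n = 3). In ranks below 500, down to rank 3814, it was 75.6% ± 1.16, so that the second tier was higher by 7.5 ± 1.07 percentage points, in 3 of 3 replicates. In the top 100 ranks it was 93.7% ± 1.53. The exact two-sided sign-flip test over 3 replicates gave p = 0.25 for the difference from the weaker peaks, which is the smallest value that 3 replicates allow, so none of the 40 such differences computed could pass 0.05.

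Promoter summits lay mostly upstream of the start. The median position was 61 bp upstream of the nearest TSS (quartiles 112 and 21.5 bp upstream), 279 of the 331 summits (84.3%) were upstream, and 223 (67.4%) lay within 100 bp. The median was 49.5 bp upstream in the top 100 peaks and 50 bp upstream in the weaker ones. TSSs on both strands lay within 500 bp of 160 of the 331 promoter summits (48.3%, exact interval 42.8 to 53.9%), against 41.5% of the top 100 and 44.6% of the weaker promoter peaks. In the replicates' own lists the share was 48.1% ± 2.42 in the second tier and 44.9% ± 1.79 below rank 500, higher in 3 of 3 replicates (exact sign-flip p = 0.25). Against 45.2% ± 1.67 in the top 100 ranks, the difference of 2.96 ± 2.65 points was near its own spread.

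**Figure D3:**
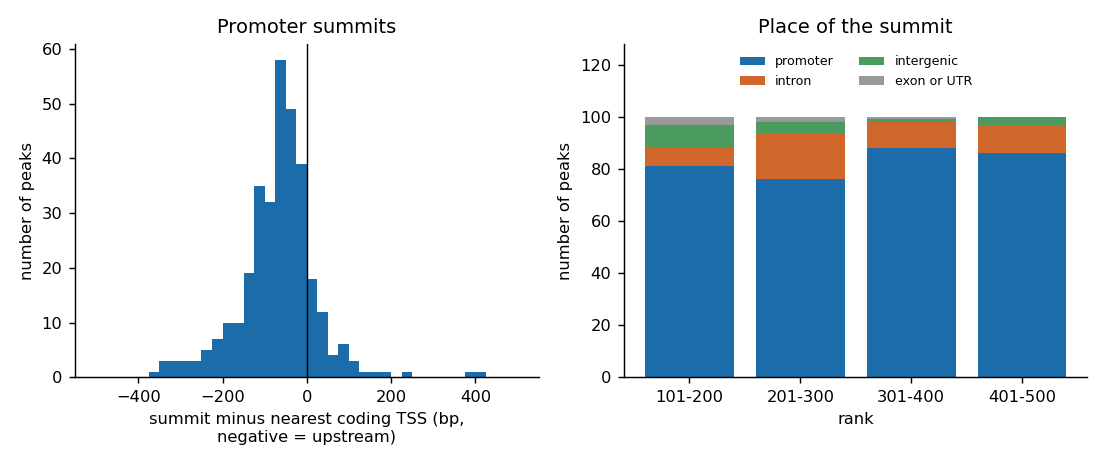
Left, number of promoter summits (y axis) by distance from the nearest coding TSS in bp (x axis, negative upstream), with most on the upstream side. Right, number of second-tier peaks in each place by blocks of 100 ranks; promoter counts were 81, 76, 88 and 86.

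The 69 second-tier peaks outside promoters had their median summit 2250 bp from the nearest coding TSS, with a range of 551 to 25274 bp. Of these, 20 lay within 1000 bp and 20 beyond 5000 bp. The strongest was an intergenic peak 3163 bp upstream of tara, a transcriptional coregulator of the trithorax group, at chr3R:16222373-16222621, with relative signals of 3.64, 4.42 and 3.69. The intronic peak of CG9663 (rank 108) had 3.57, 3.73 and 3.51, with the summit 942 bp downstream of the nearest start. The intergenic peak of DNAlig3 (rank 109), whose BEAF-32 word is printed above, had 3.72, 3.85 and 3.33. These 3 peaks had values in the range of the best-ranked promoter peaks. The intergenic peak nearest to CG31668 (rank 110) had 3.36, 3.76 and 3.54. The intergenic peak nearest to CG13323 (rank 113), 11975 bp from that start, had 3.03, 3.91 and 3.45.

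Peaks outside promoters differed from promoter peaks in base composition. The median GC content of the bases up to 50 bp either side of the summit was 33.7% for the 69 and 42.6% for the 331, and it was 34.7% and 40.6% for the corresponding weaker peaks. The TATA-box word TATAAA was present in 18 of the 69 windows (26.1%) and 36 of the 331 promoter windows (10.9%). Among the weaker peaks these shares lay closer together, at 17.2% of 784 windows outside promoters and 12.5% of 2530 promoter windows. Conversely, 3 of the 69 (4.35%) and 67 of the 331 (20.2%) held any of the 4 words that were more frequent at summits. These shares were not tested, and neither was the part of base composition in them. The median CV was 12.2% for the 69 and 13.05% for the 331.

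A set of 17 words was searched on both strands of the 50 bp either side of each summit and of windows of the same length centred 300 bp to either side. The 17 searches gave 4 words that were more frequent at summits. The test was an exact two-sided McNemar test of summit against flank within each peak, of which the larger p of both flanks was kept and adjusted over the 17 words by the Benjamini-Hochberg method. The BEAF-32 words were present at 43 of 400 summits (10.8%, exact interval 7.89 to 14.2%) and in 1.0% of flanks (adjusted exact p = 4.73e-08). The DREF word was present at 31 summits (7.75%, 5.33 to 10.8%) and in 0.75% of flanks (adjusted exact p = 6.51e-06). These calls are not separate, as all 31 peaks with the DREF word count for BEAF-32 too. Over all reproducible summits the BEAF-32 words were present in 10.9% and the DREF word in 7.94%. The shares of the members were near these, so neither word is particular to the second tier.

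The M1BP word was present at 19 summits (4.75%, 2.88 to 7.32%) and in 0.125% of flanks (adjusted exact p = 0.000227). The ZIPIC word was present at 13 summits (3.25%, 1.74 to 5.49%) and in 0.125% of flanks (adjusted exact p = 0.00623). Over all reproducible summits the M1BP word was present in 4.93%, near the share of the members, and the ZIPIC word in 2.36%. When replicate 1 was left out and the peaks were ranked again, the ZIPIC call was lost at 3.25% and an adjusted exact p of 0.055, while the other 3 calls were kept. Over 11 alternatives the adjusted exact p of ZIPIC ran from 0.000136 to 0.177, that of M1BP from 1.4e-06 to 0.0913, that of DREF from 1.82e-09 to 0.0237 and that of BEAF-32 from 3.65e-13 to 0.00376. Flanks are often outside the promoter, so the same words were counted in 19253 windows of the same length placed over annotated TSSs, centred 50 bp upstream. These held the BEAF-32 words in 7.06%, the DREF word in 5.20%, the M1BP word in 1.95% and the ZIPIC word in 1.11%. A word is a match of letters and does not show that its factor was bound. Together the 4 words occurred at 70 of the 400 summits (17.5%).

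The GAGA word GAGAGA was less frequent at summits, at 5 (1.25%) against 5.88% of flanks (adjusted exact p = 0.0116), as was a CA repeat, at 4 (1.0%) against 6.0% (adjusted exact p = 0.00227). Both calls were lost with flanks at 1000 bp, where the adjusted exact p was 0.357 and 0.339, and when any 1 of the 3 replicates was left out. Over 11 alternatives the GAGA call was lost in 8 (adjusted exact p from 0.00626 to 0.434) and the CA repeat call in 6 (0.00098 to 0.546). Other words did not pass the threshold. Motif 7, CANCNCTA, was present at 8.0% of summits and 4.12% of flanks (adjusted exact p = 0.0943), and it passed in 4 of 11 alternatives, among them windows of 100 bp either side (adjusted exact p = 6.59e-05) and flanks at 1000 bp (adjusted exact p = 0.00133). The E-box CACGTG was present at 1 summit (0.25%) and in 2.5% of flanks (adjusted exact p = 0.0522), and the E-box CAGCTG at 9.0% and 4.62% (adjusted exact p = 0.198). The core of the CTCF word, AGGNGGC, was present at 6.0% and 2.88% (adjusted exact p = 0.435), and TATAAA at 13.5% and 12% (adjusted exact p = 1).

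**Figure D4:**
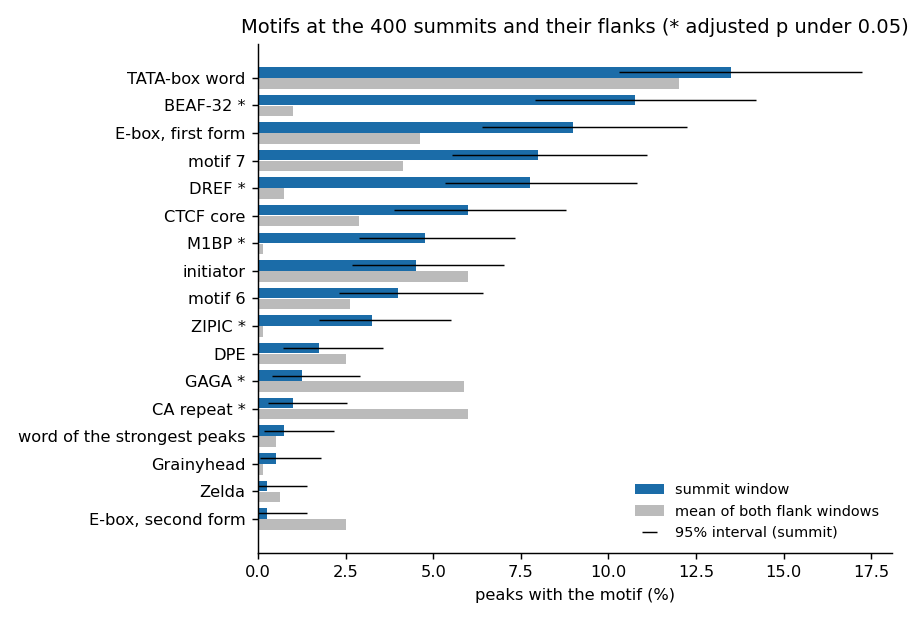
Share of the 400 second-tier peaks with each of 17 words (x axis, %) in the summit window of 50 bp either side (blue, with exact 95% interval) and on average in both flank windows (grey). The word of the strongest peaks is AACAGCAC, and the first and second E-box forms are CAGCTG and CACGTG. Asterisks mark the 6 words with an adjusted p under 0.05, of which 4 were higher at summits (BEAF-32 10.8%, DREF 7.75%, M1BP 4.75%, ZIPIC 3.25%) and 2 lower.

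A search for 8-base words with no list led to the same core. The word with the largest excess at summits on arms 2L, 2R and X was ATCGATAG, and on the other arms it was present at 14 of 181 summits (7.73%) and in 0.276% of flanks (exact McNemar p = 0.000977). In the reverse direction the word found on 3L, 3R and 4 was ATCGATAA, present on the other arms at 15 of 219 summits (6.85%) and in 0.228% of flanks (exact McNemar p = 0.000519). Both hold ATCGATA, the core of the DREF and BEAF-32 words. Among the first 100 members the word CAACACTG was present at 8 summits and in no flank window, which is a description, since the word was picked on those windows.

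Among all members 82.8% of summits were at promoters and 48.3% of those had TSSs on both strands, and the peaks with a word are given beside these shares with no test. The BEAF-32 words occurred at 41 promoter summits of 43 (95.3%), with the word a median of 24 bp from the summit, and 22 of the 41 (53.7%) had TSSs on both strands. DREF-word peaks included PCNA (rank 159), the sliding clamp of DNA replication, whose summit was at the annotated start. They also included Top2 (rank 336), a topoisomerase, RpL28 (rank 311), RpL19 (rank 426) and Su(var)3-9 (rank 492), a histone methyltransferase. M1BP-word peaks lay at 18 promoters of 19, 6 of them (33.3%) with TSSs on both strands, and included Xbp1, a factor of the unfolded protein response, Rab14 (rank 206), RpL37A (rank 317) and CycB3 (rank 425). All 13 ZIPIC-word peaks were at promoters and 10 of those (76.9%) had TSSs on both strands. They included Rho1 (rank 112), a small GTPase of the cytoskeleton, with relative signals of 3.12, 3.19 and 3.98, and put (rank 350), a type II receptor for BMP and activin ligands, with 1.72, 2.01 and 2.16.

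The word that marks the strongest peaks was rare in the second tier. AACAGCAC, which was picked from these peaks in earlier work on the data, was present at 46 of the top 100 summits, at 3 of the 400 second-tier summits (0.75%, exact interval 0.155 to 2.18%) and in 0.5% of their flanks. In the replicates' own lists it was present in 0.75% ± 0.433 of the second tier, 42.7% ± 2.31 of ranks 1 to 100 and 0.614% ± 0.126 of ranks below 500 (n = 3). The difference from the top 100, -41.9 ± 2.74 percentage points, is a description, since the word was picked on the strongest peaks of the same data. With 1 mismatch allowed, 11.5% of the members and 10.2% of their flanks held the word, against 60% of the top 100. The 3 members with it were phol (rank 126), a DNA-binding Polycomb group protein, CG44774 (rank 198) and Drat (rank 369).

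Other words moved between tiers by smaller amounts. Again the SDs are over lists that share many peaks, and they do not cover the counting of peaks. The BEAF-32 words were present in 11.4% ± 1.38 of the second tier, 6.67% ± 1.15 of ranks 1 to 100 and 10.3% ± 0.435 of ranks below 500. The difference from the top 100 was 4.75 ± 0.25 points in 3 of 3 replicates, while the difference from the weaker peaks, 1.13 ± 1.30 points, was within its spread. In the pooled ranking the members had 10.8% and the weaker peaks 11.0%, which is the opposite direction. The ZIPIC word was present in 3.92% ± 0.289 of the second tier and 1.94% ± 0.097 below, a difference of 1.98 ± 0.193 points in 3 of 3 replicates. In the top 100 ranks it was present in 3.0% ± 1.0, a difference of 0.917 ± 1.04 points with the same sign in 2 of 3 replicates. In the pooled ranking the ZIPIC shares were 4.0% in the top 100, 3.25% in the members and 2.20% in the weaker peaks. The CTCF core was present in 5.33% ± 0.144 and 3.43% ± 0.114, a difference of 1.90 ± 0.216 points. The E-box CACGTG was present in 0.50% ± 0.25 of the second tier and 6.33% ± 0.577 of the top 100. For the M1BP word the difference from the weaker peaks was 0.639 ± 0.426 points in the replicates' own lists, while in the pooled ranking the members had 4.75% and the weaker peaks 4.95%, the opposite direction. Each of these differences in the replicates' own lists had an exact sign-flip p of 0.25, except that of ZIPIC from the top 100, at 0.5.

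**Figure D5:**
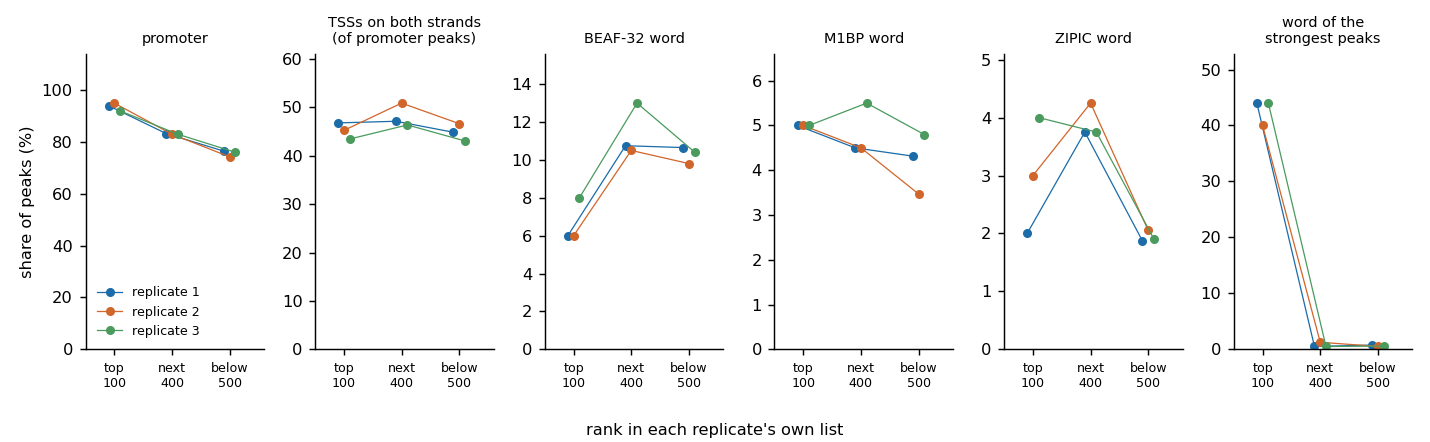
Share of peaks (y axis, %, scale differs between panels) at promoters, with TSSs on both strands among promoter peaks, and with 4 words, in 3 ranges of rank (x axis) of each replicate's own list. Lines join the values of 1 replicate; the word of the strongest peaks falls from 42.7% on average in ranks 1 to 100 to 0.75% in the second tier.

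The members named a set of genes that can be counted against all genes. Of 13945 coding genes, 501 (3.59%) had a second-tier summit within 500 bp of a TSS, and 3905 had any reproducible summit. These counts exceed the number of peaks because 154 promoter summits lay within 500 bp of 2 or more coding genes, so a gene in a list may share its peak with a neighbour. Of the 1068 genes in 20 lists, 65 had a second-tier summit. The lists were chosen with earlier results of these data known, so the counts are given with no test.

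The highest shares of the 20 lists were those of cytoplasmic ribosomal proteins and translation factors. Cytoplasmic ribosomal protein genes with a second-tier summit numbered 19 of 92 (20.7%, exact interval 12.9 to 30.4%), against 3.59% of all coding genes. In the same list 13 genes had a summit in the top 100, and 74 (80.4%) had any reproducible summit. Over all coding genes 131 (0.939%) had a summit in the top 100 and 28.0% had any. RpL23A at rank 106 led the list. RpS27 (rank 154) had 2.72, 3.83 and 2.70, in a region shared with the nuclear pore gene Nup37. RpL14 (rank 191) had 2.15, 2.86 and 3.26. Some ribosomal genes of the list, such as RpS14b, have a near-identical copy, and how reads shared between copies were placed is not given in the sources used here.

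Translation factor genes with a second-tier summit numbered 8 of 56 (14.3%, exact interval 6.38 to 26.2%). eIF6 (rank 187), which keeps ribosomal subunits apart, had 2.52, 3.31 and 2.50, and eIF3c (rank 296), a subunit of the initiation factor that binds the small subunit, had 2.30, 1.81 and 2.28. With the nearest-summit match eIF3c read 0.751 in replicate 2, and the other values were the same. eIF1 (rank 311) shares its peak with RpL28, with 1.67, 3.03 and 2.40. eIF4EHP (rank 388), a cap-binding repressor of translation, had 2.06, 2.01 and 1.72. Mitochondrial ribosomal protein genes numbered 8 of 75 (10.7%, exact interval 4.72 to 19.9%). mRpL21 (rank 125) had 3.07, 3.33 and 3.57 in a region shared with rept. mRpL47 (rank 135) had 3.24, 3.67 and 3.15, mRpL50 (rank 141) 2.93, 3.01 and 3.57, and mRpS16 (rank 160) 2.76, 3.27 and 3.16. The median signal of the second-tier peaks of this list was 516.3, against 387.3 for all members.

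Genes of replication and the cell cycle with a second-tier summit numbered 6 of 64 (9.38%). PCNA had 2.33, 3.58 and 2.63, and Cdk7 (rank 176), the kinase that activates other cyclin-dependent kinases, had 2.64, 3.23 and 2.77. CycC (rank 265), which shares its peak with the oxidative phosphorylation gene UQCR-C1, had 2.51, 2.36 and 2.23. polo (rank 276), a mitotic kinase, had 2.45, 2.73 and 1.79. Of the Rab and Vps membrane traffic genes 7 of 76 (9.21%) had a summit. Syx17 is described above, and Rab2 (rank 151) had 2.91, 2.70 and 3.20. Rab14 had 2.57, 2.72 and 2.94, and Vps33B (rank 282) had 2.72, 2.20 and 2.03.

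The other lists had few or no second-tier summits by count, and several lists are short. Their shares are given beside the 3.59% of all coding genes. Chaperone genes numbered 3 of 35 (8.57%). Hsp83 (rank 147), the fly Hsp90, had 2.41, 3.16 and 3.55. Hsp27 (rank 322) had 2.41, 1.92 and 1.76, and Hsc70-4 (rank 439) had 1.51, 2.59 and 1.61. Oxidative phosphorylation numbered 3 of 87. The ATP synthase gene blw (rank 155) had 2.86, 3.56 and 2.80, and ATPsynC (rank 480) had 2.08, 1.71 and 1.82. UQCR-C1 (rank 265), at the peak also counted for CycC, had 2.51, 2.36 and 2.23. The share of this list, 3.45%, was close to the 3.59% of all coding genes. Insulator and promoter factor genes numbered 2 of 23 (8.70%). Cp190 (rank 359) had 2.33, 2.57 and 1.62. Dref (rank 440), which shares its peak with RpL13, had 2.17, 1.99 and 1.79. Nuclear pore genes numbered 2 of 24 (8.33%), Nup37 and Nup205 (rank 207), the latter with 2.72, 2.61 and 2.40. Centriole genes numbered 2 of 18 (11.1%). Of these, ana2 (rank 354) had 1.83, 2.56 and 2.04 and ana1 (rank 419) had 1.85, 2.48 and 1.43.

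Transcription machinery numbered 2 of 61 (3.28%). Polr2H (rank 136) had 3.10, 3.72 and 2.70 and Taf4 (rank 341) had 2.08, 2.28 and 1.74. The SAGA complex had 1 of 20 (5.0%, Ada3, rank 382) and aminoacyl-tRNA synthetases 1 of 35 (2.86%, ArgRS-m, rank 179). Proteasome subunits had 1 of 48 (2.08%, Rpn2, rank 406). No second-tier summit lay at the 29 V-ATPase, 29 spliceosome or 11 snoRNP genes. Of these genes 13, 21 and 9 had a reproducible summit at another rank. The exact upper bounds of these shares of 0 were 11.9%, 11.9% and 28.5%. Segmentation and Hox genes had 0 of 30, which allows up to 10% by the limit of 3 counts (exact upper bound 11.6%), and none had any reproducible summit. Odorant and gustatory receptor genes had 0 of 120, which allows up to 2.5% (exact 3.03%), and cuticle protein genes 0 of 140, which allows up to 2.14% (exact 2.6%). The exact intervals and these limits cover the counting of genes only.

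The peaks were spread over the 5 long chromosome arms. There were 67 on X, 72 on 2L, 80 on 2R, 68 on 3L and 113 on 3R, and none on chromosome 4, where 0 of 400 allows up to 0.75% (exact upper bound 0.918%). The share on 3R was 28.2% (exact interval 23.9 to 32.9%), against 24.2% of all reproducible peaks, which lies inside the interval. Peak width had a median of 223.5 bp, against 708 bp in the top 100 and 410 bp in the weaker peaks. A width of exactly 410 bp was found in 0, 15, 38 and 51 members over successive blocks of 100 ranks, in none of the top 100, and in 96.5% of the weaker peaks, so width was not read as a property of the bound region.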

How the data were processed

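The authors deposited peak lists for 3 biological replicates, their pool and a set thresholded by the irreproducible discovery rate (IDR), in dm6 and dm3, per the read-me tables. Chromatin was sheared to 200 to 800 bp, per the labels. The unit used is the signal value per peak that the authors deposited. Aligner, peak caller, IDR threshold and control: not given in the sources used here. No read counts were analysed, so sequencing depth is unknown and intervals cover counts of peaks or genes only. The members, gene lists and words were chosen with earlier results of these data known.

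Python 3.11.15 with numpy 2.4.6, scipy 1.17.1 and pandas 2.3.3 was used. Replicate peaks were matched to members with an overlap of at least 1 bp. TSSs, exons and the 13945 coding genes came from Ensembl release 115 of the same assembly. Motif tests and the word search were tested on simulated windows with planted words. Genes named are the first 10 members, the last 5, the 5 best outside promoters, the 3 largest and 3 smallest CVs, and up to 4 best-ranked members per gene list. Of these, 1 listed gene is not reported here. Carriers of words, Polycomb and trithorax genes, and genes with 2 members were named after their values were seen. Alternatives changed the promoter distance, TSS set, motif window, flank distance, overlap, ranking and replicates used.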

Additional observations from a re-analysis of the deposited data

How the results depend on the processing

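No paired analysis was possible because there is only 1 group. Of 366 comparisons of a result with an alternative, 314 were kept, 52 changed and none reversed. Kept means that direction and side of the threshold held, or that the move was less than the spread or inside the exact interval. Counts of genes and of passing words were kept if they stayed within a fixed ratio. The leading 8-base word was kept if its test passed, also where the word itself changed, as to AATCGATA without replicate 1. The count of 314 includes the relative signals of the named peaks with 1 replicate left out. Those could not change by the rule of the spread, since leaving out 1 of 3 values always moves their mean by less than their SD. The promoter share was 79.0% and 89.0% with promoters of 250 and 1000 bp, 81.5% with TSSs of coding genes only, 83.2%, 83.0% and 83.0% in the second tier of replicates 1, 2 and 3 alone, 78.5% in the upper 200 members, 87.0% in the lower 200, 82.5% with 1 peak per interval, and 82.8 to 83.2% when 1 replicate was left out. The share with TSSs on both strands was 39.6% and 54.2% with promoters of 250 and 1000 bp, 50.9% in the list of replicate 2 alone, 51.6% in the upper 200 members, 45.4% in the lower 200, and 47.7 to 52.7% when 1 replicate was left out. The median offset from the TSS was -57.5 bp with promoters of 250 bp and in the lower 200 members, -56 bp and -55 bp in the lists of replicates 1 and 3 alone, and -62 to -55 bp when 1 replicate was left out. With an overlap of at least 50% of the member, 391 of 400 members were found in all 3 lists. The median CV was 10.05 to 12.2% when 1 replicate was left out. In the lower 200 members alone 2 words passed and 253 genes had a summit, and in the upper 200 alone 250 genes, with fewer peaks by construction. The M1BP call was lost in the lower 200 (adjusted exact p = 0.0913), and the ZIPIC call in the upper and lower 200. Of 187 comparisons of single words, 164 kept their side of the threshold, 18 lost a call and 5 gained one. The files hold no read depth, so what depth limits is unknown.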

Other observations

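Genes of chromatin regulation were noticed among the nearest genes, and a list of 45 Polycomb, trithorax and related genes was drawn up after the values had been seen, so its count is a description with no test. Of the 44 that matched the annotation, 12 (27.3%) had a second-tier summit within 500 bp of a TSS, 34 (77.3%) had any reproducible summit, and 1 had a summit in the top 100. Over all coding genes the shares were 3.59%, 28.0% and 0.939%. Those with the strongest second-tier peaks were phol (rank 126), a DNA-binding Polycomb group protein, Su(var)3-3 (rank 148), a histone demethylase, and polybromo (rank 236), a subunit of a Brahma complex. They were followed by Asx (rank 303) and ph-p (rank 319), Polycomb group proteins, Snr1 (rank 349), another Brahma complex subunit, and fs(1)h (rank 371), a bromodomain protein. A further 4 genes of the list, Psc, RYBP, osa and trx, were nearest to a second-tier summit that lay more than 500 bp from their TSSs, at ranks 495, 123, 314 and 268.

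No gene was the nearest coding gene of more than 2 members, and 9 genes were nearest to 2, which accounts for 18 members. The summits were 200 bp apart at Atx2 (ranks 120 and 459), 802 bp at gro (the first at rank 397), a corepressor of Notch and other pathways, 1028 bp at CG4004 (ranks 173 and 182) and 2001 bp at tara (ranks 103 and 493). They were 9933 bp apart at larp (ranks 195 and 476), an RNA-binding protein, and 23336 bp apart at for (ranks 196 and 238), a cyclic GMP-dependent kinase.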
